A study of Mus musculus with 2 samples.

Results

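The nuclear genes of oxidative phosphorylation were described in sorted intestinal stem cells with and without circPan3, a circular RNA named for its host gene Pan3. Members were the symbols of the array annotation that begin with Nduf, Uqcr, Cox4 to Cox8 or Atp5, together with Sdha, Sdhb, Sdhc, Sdhd, Cyc1 and Cycs, taken from rows that carry exactly 1 symbol and with the brightest row kept for each symbol. This gave 95 members among the 30145 symbols with such a row. Of these, 93 passed a filter on low values, which asked that the mean of both arrays reach 2.53, the median over the table's 72688 rows. The rule itself uses symbols and levels, not the difference between the genotypes, but it was set with earlier results of these data known.

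Total RNA came from 8-week-old mice that all carried the Lgr5GFP-CreERT2 reporter, whose green fluorescent protein (GFP) is driven by Lgr5, a receptor gene of crypt stem cells. GFP-positive cells of the small intestine were sorted from circPan3+/+ mice, the wild type for circPan3, and from circPan3-/- mice, its knockout. Each genotype was read on 1 Affymetrix Clariom D array, and the number of mice behind a sample is not stated in these sources. With 2 arrays in all, the differences below carry neither error nor p-value. Levels are log2 RMA signals, differences are circPan3-/- minus circPan3+/+, and levels of different genes are not set against each other because each row has its own probes. Sums of signals over several marker genes, given below, weigh each gene by the brightness of its own probes.

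Oxidative phosphorylation passes electrons from NADH and succinate along complexes I to IV of the inner mitochondrial membrane. Complexes I, III and IV pump protons as they do so, and complex V, the ATP synthase, lets the protons return and makes ATP. A few subunits are encoded by mitochondrial DNA, and the others are nuclear genes whose products must be imported and assembled. In the crypt, Lgr5-positive stem cells are known for an active mitochondrial respiration beside more glycolytic Paneth cells.

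Most genes read higher on the circPan3-/- array, with a median difference of 0.36 over 13537 named protein-coding genes past the filter, and this shift grew with level, from 0.19 in the dimmest eighth to 0.55 in the brightest. The median difference of the 500 named genes nearest in mean level was therefore removed from each member, and the remainder is called the like-level difference. For the members this removed shift ran from 0.12 to 0.59. As a limit of detection, the 95th percentile of the negative control rows was used, which was 5.06 for circPan3+/+ and 5.56 for circPan3-/-. Of the 93 members, 64 lay above the limit on both arrays and 27 under it on both. The circPan3+/+ column also held repeated values. In it, 69.1% of all rows shared their value with another row, against 4.20% in the circPan3-/- column, and how this arose was not tested.

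The sort marker itself differed: Lgr5 had 10.91 in circPan3+/+ and 7.02 in circPan3-/- cells. Markers of other cell types differed as well. All 7 goblet and all 6 Paneth markers measured were at least 1.5-fold higher after the removal, with summed linear signals of 1106 against 4802 and of 2312 against 8672. Of 8 enterocyte markers 5 were at least 1.5-fold lower and 0 higher, with summed signals of 2781 and 1725. All 8 myeloid markers were lower, with 2010 and 1568. The sums are of signals as deposited, and the brightest myeloid marker, Lyz2, with 10.55 and 10.51, weighs most in the myeloid ones. The other 7 myeloid markers were under the limit in circPan3-/- cells. Goblet markers ran from Zg16 at 0.59 to Clca1 at 2.71, and none of the 7 was under the limit on both arrays; the same held for the Paneth and myeloid markers, and among enterocyte markers Lct was under it on both. Of the other lists, 4 of 6 enteroendocrine, 4 of 5 tuft and 1 of 6 mesenchymal markers were higher. Lower were 5 of 7 T and NK cell, 2 of 4 B and plasma cell, 4 of 4 endothelial and 3 of 6 mesenchymal markers. Of all named genes past the filter, 10.1% were at least 1.5-fold higher and 12.0% lower. Under the limits on both arrays were all 5 tuft markers and 2 of 6 enteroendocrine markers. The same held for 5 of 7 T and NK cell, 2 of 4 B and plasma cell and 3 of 6 mesenchymal markers. Among 6 stem cell markers 3 were higher and 2, Lgr5 and Olfm4, lower. The part of such cells in the differences below was not tested, and in sorted pools fewer cells of a type and less RNA per cell cannot be told apart.

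As deposited, nearly all members read higher in circPan3-/- cells. A difference above 0 was held by 90 of 93, or 96.8%, against 78.4% of all named genes past the filter. The median was 0.63, and 53 members were at least 1.5-fold higher, 57% against a background of 30.4%, with 0 at least 1.5-fold lower against 5.63%. At 2-fold 13 members were higher, against 9.70% of named genes, and 0 lower, against 2.82%. Once the shift of genes of like level was removed, the members stayed close to it. The median was 0.14, 58 of 93 members (62.4%) lay above 0 against 50.1% of named genes, and 81 of 93 were within 1.5-fold in either direction. At least 1.5-fold higher were 11 members, or 11.8%, near the background of 10.1%. At least 1.5-fold lower was 1 member, or 1.08%, under the background of 12.0%. Among the 64 members above both limits, 38 (59.4%) lay above 0, where the same share of named genes above both limits was 51.2%. Of these 64, 5 were at least 1.5-fold higher and 1 lower, where 9.28% and 10.5% of such named genes were.

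**Figure D1:**
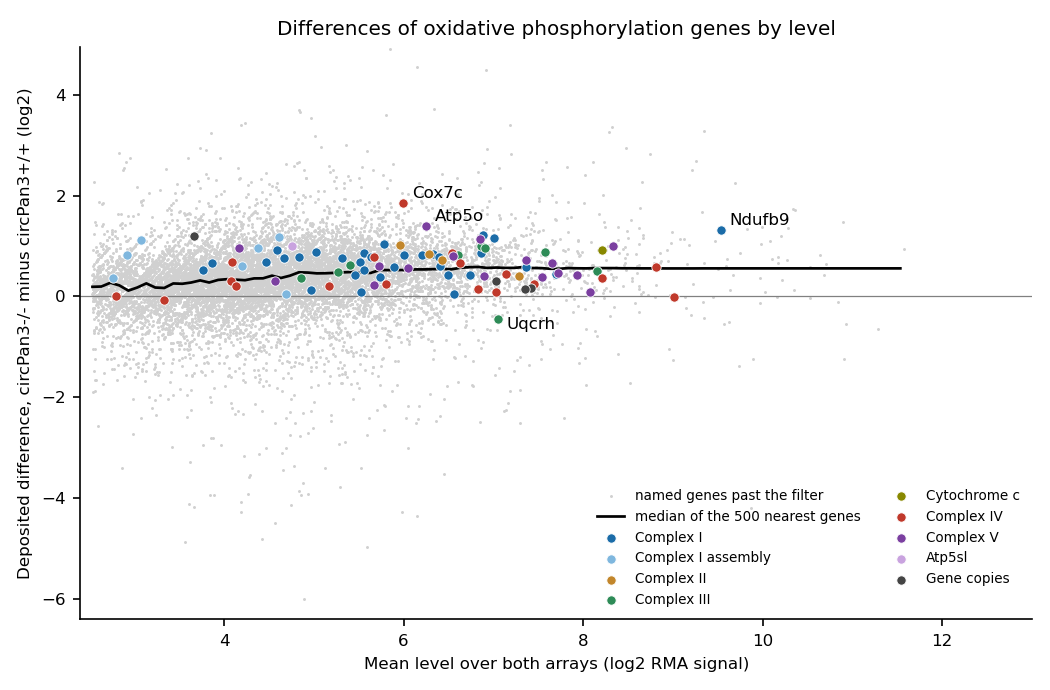
Deposited difference (circPan3-/- minus circPan3+/+, log2) against mean level over both arrays (log2 RMA signal), 1 point per gene. Grey points are named genes past the filter, coloured points the 93 members by complex, and the black line is the median of the 500 nearest genes. Most members lie near the line, with Cox7c above it at 1.85 and Uqcrh below 0 at -0.45.

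The members furthest from genes of like level were Cox7c, a small subunit of complex IV, and Uqcrh, the hinge subunit of complex III. Cox7c stood at 5.07 in circPan3+/+ and at 6.91 in circPan3-/- cells, with a deposited difference of 1.85 or 3.60-fold, and a like-level difference of 1.32 or 2.5-fold. It was the single member past the filter that stood at least 2-fold higher, where 3.38% of named genes did. Its circPan3+/+ value only just passed the limit of 5.06 and was held by 26 rows of the table. Uqcrh had 7.27 and 6.82, a deposited difference of -0.45 and a like-level difference of -1.02 or 2.02-fold, the single one at least 2-fold lower, where 5.00% of named genes were. Both its values stood in no other row. The next lowest, Cox6a1, another small subunit of complex IV, had 9.02 and 9.0 and a like-level difference of -0.58. Of the 93 members 5 lay outside the range that holds the central 90% of named genes, -1.0 to 0.84: Cox7c, Uqcrh, Atp5o, the assembly factor gene Ndufaf6 and the pseudogene Atp5c1-ps.

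Promoter sequences were taken from RefSeq (GRCm38.p6) so that the members at the ends of the range can be read beside their values. Of the 95 members 75 matched an entry by gene identifier. The 180 bases before the start are printed for the member furthest above, the pair furthest below, and Atp5g3, a c-ring gene of complex V whose window holds a nuclear receptor motif. Capitals mark short cores of motifs bound by factors known to drive respiratory genes.

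Cox7c (chr13:86046796-86046975, minus strand): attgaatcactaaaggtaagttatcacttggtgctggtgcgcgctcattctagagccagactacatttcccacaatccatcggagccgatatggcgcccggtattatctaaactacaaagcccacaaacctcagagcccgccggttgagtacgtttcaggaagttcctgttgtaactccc

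Uqcrh (chr4:116075071-116075250, minus strand): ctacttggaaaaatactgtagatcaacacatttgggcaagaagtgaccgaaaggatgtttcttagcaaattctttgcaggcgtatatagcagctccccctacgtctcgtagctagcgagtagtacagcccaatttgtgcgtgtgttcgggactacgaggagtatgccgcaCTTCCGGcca

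Cox6a1 (chr5:115348959-115349138, minus strand): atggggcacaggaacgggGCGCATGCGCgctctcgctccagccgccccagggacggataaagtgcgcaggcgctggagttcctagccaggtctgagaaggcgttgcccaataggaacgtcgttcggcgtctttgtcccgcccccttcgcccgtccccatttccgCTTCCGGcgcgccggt

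Atp5g3 (chr2:73911327-73911506, minus strand): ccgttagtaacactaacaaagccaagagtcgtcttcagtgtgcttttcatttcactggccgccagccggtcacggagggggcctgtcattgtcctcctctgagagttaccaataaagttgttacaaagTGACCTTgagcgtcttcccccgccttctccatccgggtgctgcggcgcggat

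The cores searched on both strands were GCGCATG for NRF1, CCGGAAG for the ETS family with GABPA, AAGATGG for YY1 and AAGGTCA for the ERR receptors, over windows of 300 bases from 250 before to 50 after the start. Cox6a1 holds the NRF1 core on both strands at once, overlapping in 1 palindrome, and an ETS core near the start, and Uqcrh holds an ETS core beside the start. The Atp5g3 stretch has the ERR core, and no searched core lies in the printed Cox7c stretch, although the YY1 core stands after its start. The NRF1 core was found in 15 of 75 members (20%) against 4.41% of the 27025 genes in the promoter table, the ETS core in 18 (24% against 9.93%), the YY1 core in 12 (16.0% against 7.28%) and the ERR core in 7 (9.33% against 5.38%). At least 1 core stood in 40 members, or 53.3%, against 24% of genes. The 27025 genes were not filtered by biotype or level, so they are not a set like the members. Like-level differences with and without each core were as follows. The median like-level difference was 0.01 in 15 members with the NRF1 core and 0.22 in 58 past the filter without it, -0.09 and 0.26 with and without the ETS core, 0.28 and 0.12 for the YY1 core, and 0.09 and 0.14 for the ERR core. A match is a run of letters and does not show that a factor binds.

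The complexes were not alike. Complex I had the highest median among the 5 complexes and complex IV the lowest. The median like-level difference was 0.29 over 33 subunits of complex I, 0.24 over 4 of complex II, 0.15 over 9 of complex III, -0.17 over 18 of complex IV and 0.06 over 16 of complex V. In complex I 25 of 33 subunits (75.8%) lay above 0, and in complex IV 6 of 18 (33.3%), where the background was 50.1%. The 18 include 6 restricted isoforms, 5 of them under the limits on both arrays, and 1 of the 6 lay above 0. Over the 11 general isoforms of complex IV 5 lay above 0, with a median of -0.12. Above both limits, 16 of 23 subunits of complex I and 5 of 12 of complex IV lay above 0, where 51.2% of such named genes did. As deposited all 5 medians were above 0, at 0.76, 0.79, 0.63, 0.28 and 0.59, so that complex IV lay below genes of like level and not below its own circPan3+/+ values. With 1 array per genotype no test of a difference between complexes could be made.

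**Figure D2:**
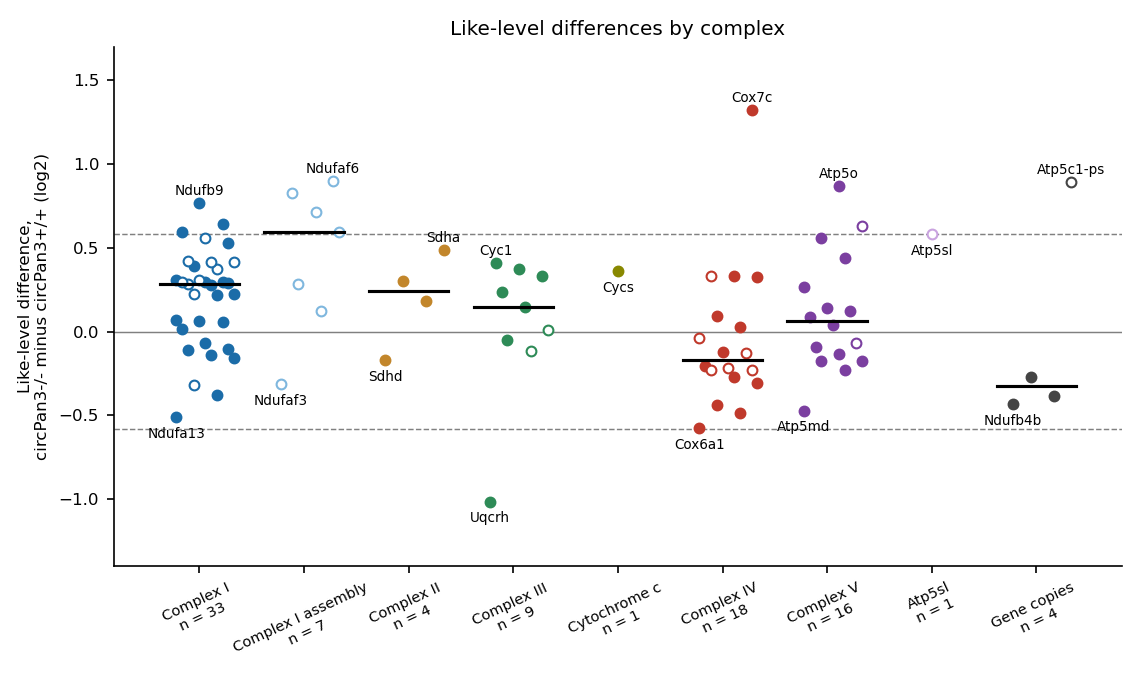
Like-level difference (log2, vertical axis) of each of the 93 members past the filter, grouped by complex. Filled points are above the control limits on both arrays, open points are not; black lines are medians and dashed lines mark 1.5-fold. Complex I centres at 0.29 and complex IV at -0.17, while Cox7c at 1.32 and Uqcrh at -1.02 stand apart within their complexes.

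Complex I takes electrons from NADH and passes them to ubiquinone, and its peripheral arm holds the flavin and the iron-sulfur clusters. Ndufv1, whose product binds NADH and the flavin, had 5.59 in circPan3+/+ and 6.42 in circPan3-/- cells and a like-level difference of 0.30. Its iron-sulfur partner Ndufv2 had 5.91 and 6.74, also 0.30, and the largest core subunit gene, Ndufs1, had 5.26 and 6.30, or 0.53. These 3 core members all lay above genes of like level. The circPan3+/+ value of Ndufs1 was held by 76 rows of the table and that of Ndufv1 by 33. Ndufs3 had 4.93 and 5.69, with the circPan3+/+ value under the limit, and a like-level difference of 0.29. Ndufs7 and Ndufs8, which carry the clusters nearest to ubiquinone, lay nearer 0, with 6.10 and 6.71 (0.06) for Ndufs7 and 7.47 and 7.92 (-0.11) for Ndufs8. Of these 6 core subunits 5 lay above 0, and 0 were past 1.5-fold.

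The accessory subunits of the peripheral arm, which stabilise the core, gave a similar picture, with 8 of 9 above 0 and a median of 0.28. Ndufa12 had 6.43 and 7.59 and was the single one past 1.5-fold, at 0.60 or 1.51-fold. Its circPan3+/+ value was held by 12 rows of the table, and 7 of the 9 shared their circPan3+/+ value with another row. Ndufa7 (0.42, under the limits on both arrays), Ndufs4 (0.39), Ndufa9 (0.29), Ndufv3 (0.28) and Ndufa5 (0.22) followed, then Ndufa2 (0.07) and Ndufs6 (0.01). Ndufa6 was the lowest, with 6.28 and 6.71 and a like-level difference of -0.11.

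The membrane arm spread more widely. Its 18 accessory subunits ran from -0.51 to 0.77 with a median of 0.26, and 12 lay above 0. Ndufb9 had 8.87 in circPan3+/+ and 10.19 in circPan3-/- cells, a deposited difference of 1.33 and a like-level difference of 0.77 or 1.7-fold, and Ndufa10 had 6.28 and 7.50, or 0.64 and 1.56-fold. These were the only subunits of this arm past 1.5-fold, and both were above the limits with values found in no other row. At the other end stood Ndufa13, also known as the cell death regulator GRIM-19, with 6.54 and 6.59 (-0.51), Ndufb7 with 5.48 and 5.57 (-0.38), and Ndufb8 with 4.91 and 5.04, both under the limits (-0.32). Ndufa8 (-0.16), Ndufa3 (-0.14) and Ndufa1 (-0.07) were also below 0, and Ndufb11 (0.05) was close to it. The remaining members lay above, Ndufb5 at 0.56, Ndufs5 and Ndufb3 at 0.42, Ndufab1, the mitochondrial acyl carrier protein gene, at 0.37, Ndufb6 and Ndufb10 at 0.31, Ndufc1 at 0.30, and Ndufc2 and Ndufb2 at 0.23. Of this group, however, Ndufb5, Ndufs5, Ndufb3, Ndufab1, Ndufb10, Ndufc1 and Ndufb2 were under the limits on both arrays. Over the 10 membrane arm subunits above both limits the median was -0.01, against 0.28 over 13 of the peripheral arm.

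The median of complex I was closer to 0 without repeated values. Its 21 subunits with a value shared by another row had a median of 0.30, and its 12 subunits with unshared values a median of 0.06, of which 7 lay above 0. In all named genes the same division gave 0.01 over 9273 genes and -0.03 over 4264. The shared and unshared subunits of complex I also differed in level, with median circPan3+/+ levels of 5.12 and 6.28. Complex IV lay below 0 in both, at -0.04 over 7 shared and -0.22 over 11 unshared subunits.

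Complex I is built with the help of Ndufaf assembly factors, which leave the finished enzyme. All 7 measured were under the limits on both arrays, so no fold is given. Their like-level differences were 0.90 for Ndufaf6 (2.51 and 3.63), 0.83 for Ndufaf4 (4.02 and 5.20), 0.71 for Ndufaf2 (2.51 and 3.34) and 0.60 for Ndufaf1 (3.90 and 4.85), the 4 past 1.5-fold. Of all named genes past the filter, 10.1% were at least 1.5-fold higher. Ndufaf7 (0.28) and Ndufaf5 (0.12) were nearer 0, and Ndufaf3, with 4.67 and 4.72, was at -0.32. Of the 7, 6 shared their circPan3+/+ value with another row. The circPan3+/+ value of Ndufaf2 and Ndufaf6 was the same and stood in 1579 rows of the table.

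Complex II, succinate dehydrogenase, is the link between the tricarboxylic acid cycle and the respiratory chain and is wholly nuclear-encoded. All 4 of its genes were above the limits with unshared values. The flavoprotein gene Sdha had 5.45 in circPan3+/+ and 6.47 in circPan3-/- cells, a deposited difference of 1.02 and a like-level difference of 0.49 or 1.40-fold. The iron-sulfur subunit gene Sdhb had 6.06 and 6.79 (0.18). Of the 2 membrane anchors, Sdhc had 5.86 and 6.70 (0.30) and Sdhd 7.08 and 7.48 (-0.17). The group thus ran on both sides of genes of like level, and none was past 1.5-fold.

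Complex III passes electrons from ubiquinol to cytochrome c. Its electron carriers and core proteins lay above 0 and most of its small subunits did not. Cyc1, which encodes cytochrome c1, had 6.36 and 7.36, a like-level difference of 0.41, and the Rieske iron-sulfur protein gene Uqcrfs1 had 5.08 and 5.71 (0.15). The core protein genes Uqcrc1, with 6.43 and 7.38 (0.37), and Uqcrc2, with 7.13 and 8.02 (0.33), read like Cyc1. Among the 5 accessory subunits, Uqcrq had 6.20 and 7.02 (0.24), Uqcr11 5.03 and 5.51 (0.01, both under the limits), Uqcrb 7.90 and 8.41 (-0.05) and Uqcr10 4.67 and 5.04 (-0.12, both under the limits). Uqcrh, whose promoter is printed above, was the lowest of the complex and of all members, and the only member of complexes I to III with a deposited difference below 0.

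Cytochrome c, the mobile carrier between complexes III and IV, is encoded by Cycs. Its brightest row had 7.74 and 8.67, a like-level difference of 0.36. That row carries chromosome 19 in its identifier, whereas RefSeq places Cycs on chromosome 6. The Cycs row on chromosome 6 had 7.62 and 8.09, a like-level difference of -0.08, so the direction depends on the row.

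Complex IV, cytochrome c oxidase, reduces oxygen to water, and its nuclear subunits surround a core made from mitochondrial DNA. Of the 11 subunits in their general isoform, Cox7c alone was past 1.5-fold, 5 lay above 0 and the median was -0.12. Cox4i1 had 5.27 in circPan3+/+ and 6.06 in circPan3-/- cells (0.33), Cox7b 6.11 and 6.98 (0.33), Cox5a 6.30 and 6.96 (0.10) and Cox6b1 8.52 and 9.10 (0.03). Below 0 stood Cox5b with 6.92 and 7.36 (-0.12), Cox8a with 8.03 and 8.39 (-0.21), and Cox6c with 5.07 and 5.27, under the limit in circPan3-/- cells (-0.23). Ndufa4, first named as a subunit of complex I but found in complex IV, had 7.32 and 7.58 (-0.31). Cox7a2 had 6.99 and 7.07 (-0.49), and with Cox6a1 it came closest to 1.5-fold on the lower side. Cox7a2l, which helps join complexes III and IV in supercomplexes, had 6.76 and 6.91 (-0.44).

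Several subunits of complex IV come in isoforms restricted to muscle, lung, testis or low oxygen. Of 8 such genes 2, Cox7b2 (0.89 and 2.44) and Cox8b (1.71 and 2.38), did not pass the filter. Cox7a1, the muscle form of Cox7a2, was the single one above both limits, with 5.68 and 5.93 and a like-level difference of -0.27. The others were under the limits on both arrays: Cox6b2 with 3.75 and 4.42, Cox6a2 with 3.93 and 4.23, Cox4i2, the lung form, with 4.03 and 4.24, Ndufa4l2, known from low oxygen, with 3.36 and 3.29, and Cox8c, a testis form, with 2.79 and 2.80. Where one gene of a pair was above the limits, it was the general form for Cox4i1 against Cox4i2, Cox6a1 against Cox6a2, Cox6b1 against Cox6b2, Cox7b against Cox7b2 and Cox8a against Cox8b and Cox8c, on both arrays.

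**Figure D3:**
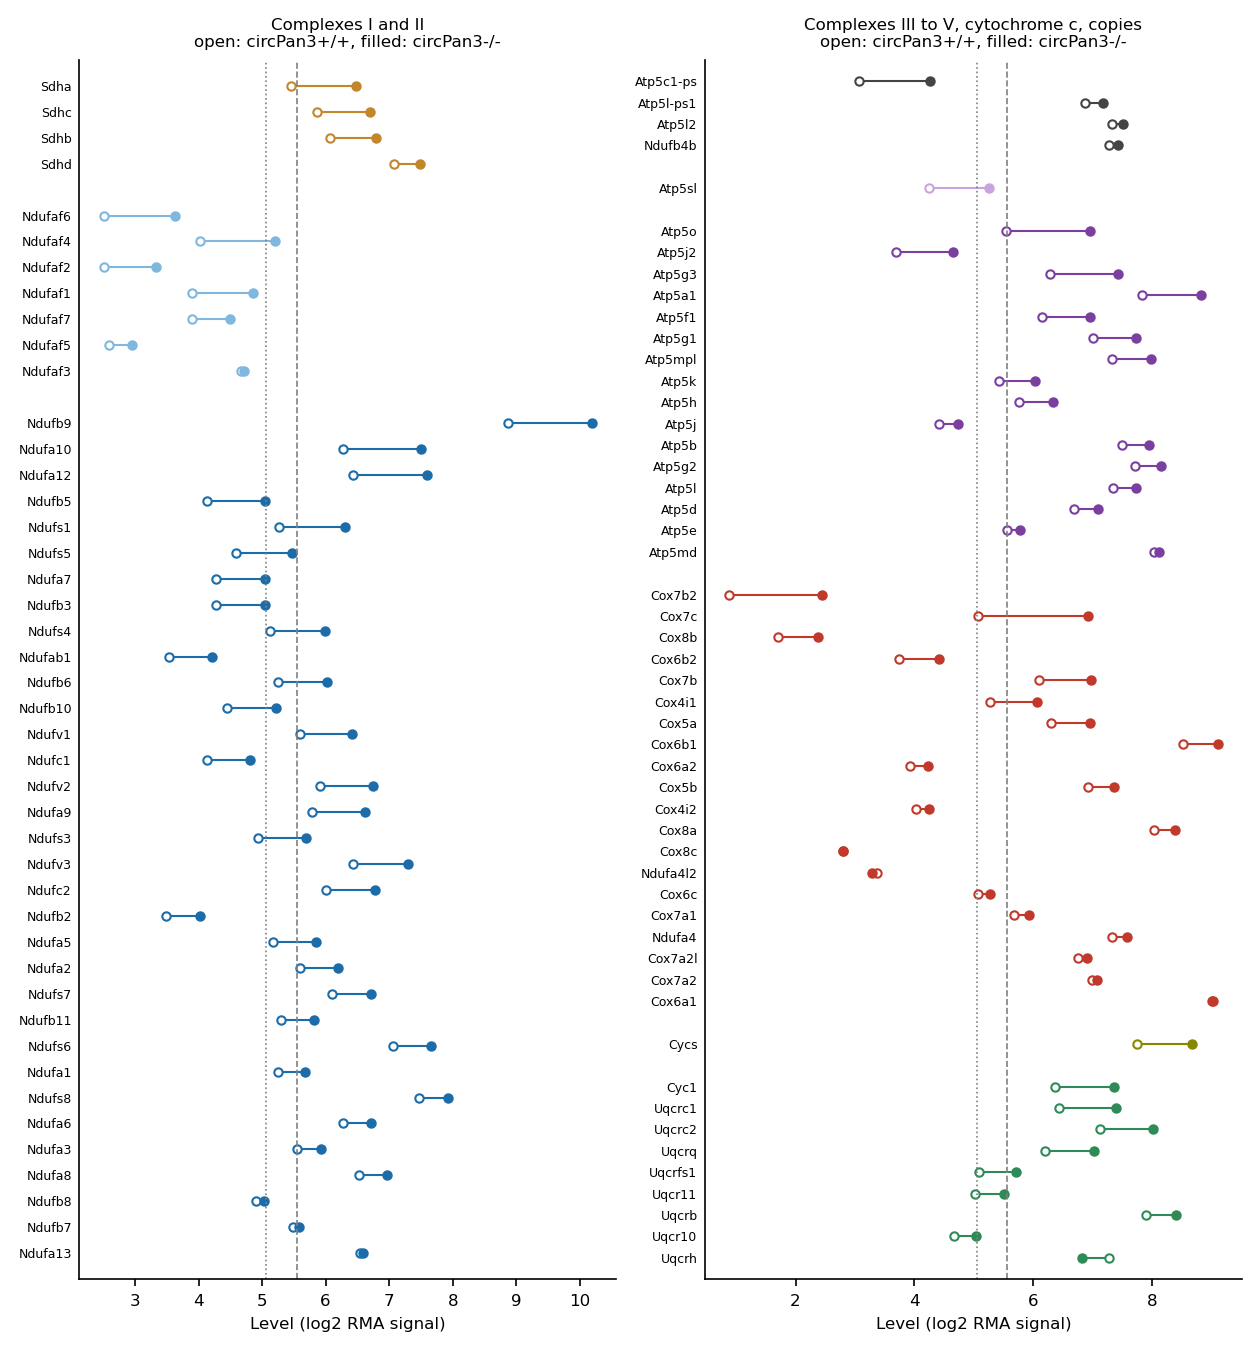
Level (log2 RMA signal) of all 95 members on both arrays, open circles for circPan3+/+ and filled circles for circPan3-/-, grouped and coloured by complex and ordered by like-level difference. The dotted and dashed lines are the control limits of the circPan3+/+ array (5.06) and the circPan3-/- array (5.56); Uqcrh, Ndufa4l2 and Cox6a1 are the members whose filled circle lies left of the open one.

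Complex V joins the rotating F1 head to a proton channel in the membrane. The catalytic head split: Atp5a1, the alpha subunit, had 7.83 in circPan3+/+ and 8.83 in circPan3-/- cells (0.44), while Atp5b, the catalytic beta subunit, had 7.49 and 7.95 (-0.09). The central stalk genes Atp5d, with 6.69 and 7.10 (-0.18), and Atp5e, with 5.56 and 5.79 (-0.23), lay below 0. A second, dimmer row for Atp5d on the same chromosome went the other way, with 2.90 and 3.82, both under the limits (0.72), and the mean of both rows gave 0.20. In the peripheral stalk, which holds the head still, Atp5o, the oligomycin sensitivity protein, had 5.55 and 6.95, a deposited difference of 1.41 and a like-level difference of 0.87 or 1.83-fold. Its stalk partners Atp5f1 with 6.14 and 6.95 (0.26), Atp5h with 5.76 and 6.33 (0.04) and Atp5j with 4.42 and 4.73, both under the limits (-0.07), were within 1.5-fold.

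The c ring that turns with the proton flow is encoded by 3 genes whose mature protein is the same. Their differences ran apart. Atp5g3 had 6.28 and 7.42 (0.56 or 1.47-fold), Atp5g1 7.0 and 7.72 (0.14) and Atp5g2 7.72 and 8.14 (-0.13). A row for Atp5g2 on chromosome 7, away from its gene on chromosome 15, gave nearly the same, 7.68 and 8.15. Of the small membrane subunits, Atp5j2 was past 1.5-fold at 0.63 but under the limits on both arrays, with 3.69 and 4.65. Atp5mpl had 7.32 and 7.99 (0.12), Atp5k 5.42 and 6.03 (0.09), and Atp5md, which helps ATP synthase dimers form, 8.03 and 8.12 (-0.47). Atp5l had 7.34 and 7.73 (-0.17) in a row on chromosome 5, while its gene lies on chromosome 9. Its pair of rows there went apart, 4.10 and 3.65 in one and 4.07 and 4.52 in the other, all under the limits. Atpif1, the inhibitor that stops the enzyme from running backwards, is outside the member rule and had 5.84 and 5.93 (-0.44).

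The other 5 members were a relative of the ATP synthase genes and 4 copies. Atp5sl, also named Dmac2 and linked to complex I assembly, had 4.25 and 5.25, both under the limits, with a like-level difference of 0.58. Ndufb4b, a copy of Ndufb4, had 7.28 and 7.42 (-0.44), and the pseudogenes Atp5l2 and Atp5l-ps1 had 7.33 and 7.51 (-0.38) and 6.87 and 7.18 (-0.27). Atp5c1-ps had 3.07 and 4.26, both under the limits (0.89). Copies of respiratory genes are near-identical, and probes may not tell them from their parents. Ndufa11, Ndufb4, Ndufb1 and Atp5c1 were not analysed here.

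Other gene lists of mitochondrial function lay beside the complexes as follows. Tricarboxylic acid cycle enzymes and the pyruvate dehydrogenase genes that feed the cycle had a median like-level difference of 0.45, with 7 of 17 at least 1.5-fold higher and 0 lower, against the backgrounds of 10.1% and 12.0%. Idh3a, of the NAD-dependent isocitrate dehydrogenase, had 5.46 and 6.88 (0.88) and Dld, a subunit shared by the dehydrogenase complexes, 6.73 and 8.15 (0.86), while the citrate synthase gene Cs, with 7.6 and 8.10 (-0.06), and Mdh2, with 7.74 and 8.26 (-0.04), were level with their like. Assembly factors outside the member rule had a median of 0.28, with 5 of 33 higher and 0 lower, led by the copper chaperone gene Sco1 at 1.37 (3.07 and 4.73, both under the limits) and Taco1, an activator of complex IV translation, at 0.95. Of the 33, 28 were under the limits on both arrays.

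Mitochondrial ribosomal protein genes had a median of 0.17, with Mrps31 at 1.18 and Mrps16 at -0.63 being the ends. Of the 74, 11 were higher and 1 lower, against backgrounds of 10.1% and 12.0%, which also hold for the lists that follow. On both arrays 19 of the 74 were above the limits and 42 under them. No gene called higher or lower was above both limits. Genes that copy, transcribe and translate mitochondrial DNA had a median of 0.31, with 7 of 16 higher and 0 lower. Of the 16, 12 were under the limits on both arrays, 4 were under it in circPan3+/+ cells only, and 0 were above both. Tfam, which packages mitochondrial DNA, had 3.78 and 5.46 (1.32), and Lrpprc, which stabilises its transcripts, 4.33 and 5.86 (1.09). Among regulators of mitochondrial biogenesis 3 of 12 were higher, Tfam and the coactivators Ppargc1a with 3.49 and 5.05 (1.22) and Ppargc1b with 3.71 and 5.23 (1.14), all under the limits. The median was 0.11, since Nrf1 (0.08), Gabpa (0.14) and Myc (0.03) stayed near 0 and Yy1 had 0.37. Esrra was not analysed here.

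Glycolysis stood on the other side of 0. Its 12 genes had a median of -0.38, with 4 at least 1.5-fold lower and 1 higher, against backgrounds of 12.0% and 10.1%. Aldoa had 6.88 and 6.5 (-0.96) and Pkm 7.20 and 6.83 (-0.94). Pfkp had 4.84, under the limit, and 6.32 (1.02). Hk1, also among the lower ones, was under the limits on both arrays. Cytoplasmic ribosomal protein genes had a median of -0.04 over 39 genes with 3 higher and 1 lower. Of the 3 higher ones, Rpl31 and Rpl39l were under the limits on both arrays and Rpl6 in circPan3+/+ cells. Each cell type marker list given above had a median further from 0 than each complex, the nearest being B and plasma cells at -0.55.

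**Figure D4:**
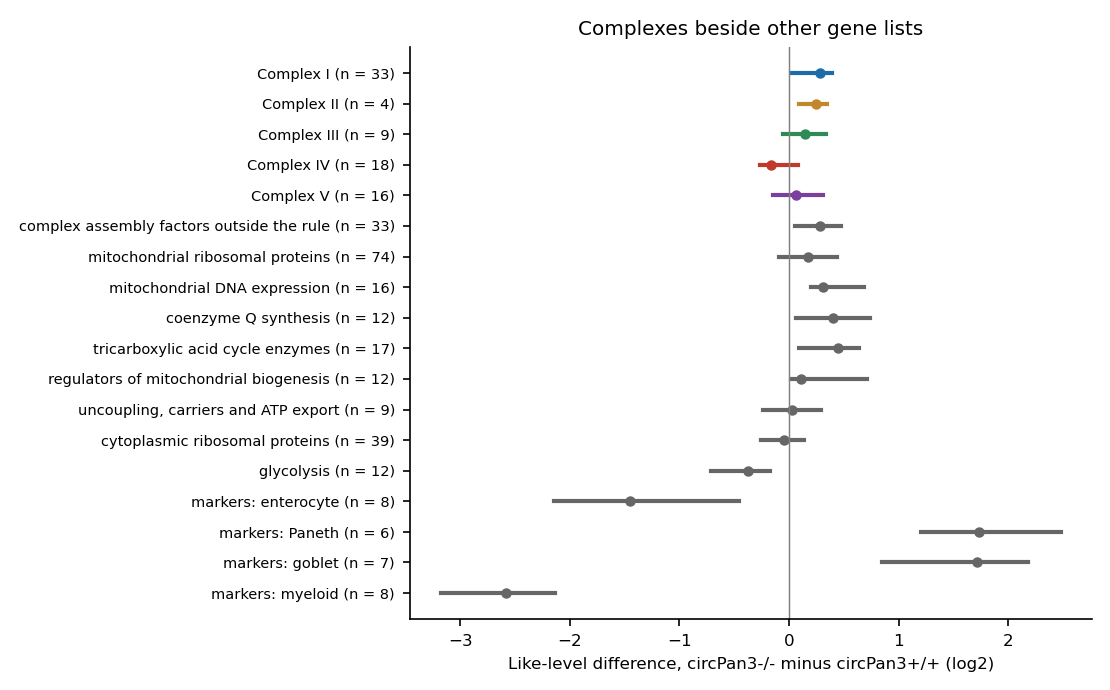
Median (point) and interquartile range over genes (bar) of the like-level difference (log2, horizontal axis) for the 5 complexes, in colour, and for other gene lists and cell type markers, in grey, with the number of genes past the filter. The complexes lie between -0.17 and 0.29, the tricarboxylic acid cycle at 0.45 and glycolysis at -0.38, inside the range of goblet (1.71), Paneth (1.73), enterocyte (-1.45) and myeloid (-2.58) markers.

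The order of the complexes depended on the setting, apart from the last place. Complex IV had the lowest median of the 5 under each of the settings tried, and complex I or II the highest. With values shared with no other row complex I had 0.06, below complexes II, III and V. Complex IV came to 0.28 as deposited and to -0.01 after quantile normalization, in which the shift of genes of like level is not removed.

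**Figure D5:**
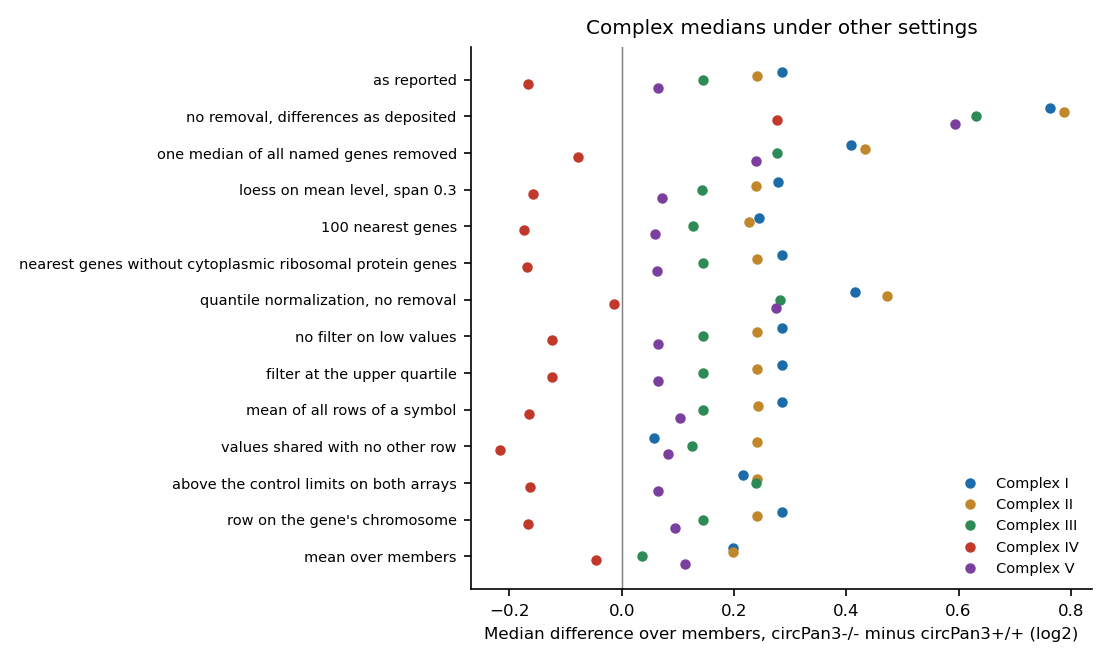
Median difference over members (log2, horizontal axis) of each complex under the reported and the other settings (vertical axis), 1 colour per complex. Complex IV is the leftmost point in each row, from -0.22 to 0.28.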

How the data were processed

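The deposited values are log2 signals, 1 per transcript cluster, made with RMA in Affymetrix Power Tools per the submitters' processing notes. RMA output and the range of the values set the log base. Versions, parameters and build: not given in the sources used here. Of 72688 rows, 30604 carried 1 symbol in the platform annotation and 2146 several, and the latter were not named. Biotypes and gene chromosomes came from the RefSeq table (GRCm38.p6), which 30602 rows matched. Named genes were the 17845 protein-coding symbols that are no predicted models, 13537 of them past the filter. The like-level shift was the median over the 500 nearest of 13447 named genes that are no members, and the function was tested on simulated data. With 1 array per genotype a difference of at least 1.5-fold stands in for a test. Where the dimmer value lay under its array's control limit no fold is given. Python 3.11.15, pandas 2.3.3 and statsmodels 0.14.6 (loess, span 0.3) were used.

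Described in full were, per complex, up to 3 members at each end, every member past 2-fold, isoform pairs and catalytic subunits, and of each other list up to 2 genes in each direction with Ppargc1a, Ppargc1b, Nrf1, Gabpa, Esrra, Tfam, Myc and Lgr5. The members and lists were chosen with earlier results of these data known, and the ribosomal protein lists and the motifs were added after the values were seen. The number of arrays limits the precision.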

Additional observations from a re-analysis of the deposited data

How the results depend on the processing

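With no removal of the shift the medians of complexes I to V were 0.76, 0.79, 0.63, 0.28 and 0.59, with 53 members at least 1.5-fold higher and 0 lower. With the 1 median of all named genes removed, complexes II to V had 0.43, 0.28, -0.078 and 0.24, and 17 members were higher. Quantile normalization gave 0.47, 0.28, -0.013 and 0.27 for complexes II to V and 20 higher. The share of named genes past 1.5-fold under these settings is not given here. The counts of 17 and 20, and the 3 with unshared values below, can therefore not be set against a background. The lower count was 2 in place of 1 with loess, with 100 nearest genes and without cytoplasmic ribosomal protein genes among the neighbours, Cox6a1 then passing 1.5-fold. Keeping values shared with no other row left complex I at 0.058 and 3 members higher. At 2-fold 1 member was higher. Averaging a symbol's rows put complex V at 0.10. Means over members in place of medians were 0.036 for complex III, -0.045 for complex IV and 0.11 for complex V. Chosen after seeing the data, a restriction to members above both control limits gave 0.24 for complex III and 5 members higher. The cause of these moves was not tested, except that a stricter fold or a restriction leaves fewer genes.

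For 40 single members the settings gave 393 values on the same side of 1.5-fold. A further 28 were newly past it, 3 no longer past it, and 26 were of uncalled members with a changed sign. Among called members 0 changed direction. Of the 393, 40 came with no filter, 36 with the upper quartile filter, 28 above both control limits and 26 with unshared values. These settings choose which genes are kept, so they are no check of a single value. Settings on rows mainly reach the 4 members with more than 1 row. Leaving out a replicate was not possible, and no paired analysis was possible because each genotype has 1 array. The number of arrays and the control limits, above which 64 of 93 members lay on both arrays, bound what can be read.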

Other observations

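Genes that connect the respiratory chain with the cell went both ways. Slc25a4, an ADP/ATP carrier of the inner membrane, had 6.20 in circPan3+/+ and 5.63 in circPan3-/- cells, a like-level difference of -1.11, while its relative Slc25a5 had 9.29 and 9.90 (0.06). The outer membrane channel genes Vdac1, with 6.30 and 7.4 (0.52), and Vdac2, with 6.67 and 7.69 (0.44), stood highest of these carriers, of which 0 of 9 were at least 1.5-fold higher and 1 lower. In the synthesis of coenzyme Q, the lipid that carries electrons to complex III, 4 of 12 stood at least 1.5-fold above and 1 below genes of like level, with a median of 0.40. Coq5, a methyltransferase of that pathway, had 5.59 and 7.62, a deposited difference of 2.03 and a like-level difference of 1.45, and was above both control limits. In circPan3+/+ cells 11 of the 12, Coq5 among them, shared their value with another row. Coq3 had 3.71 and 3.36, both under the limits (-0.60), and 9 of the 12 were under the limits on both arrays.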
